A study of Mus musculus with 10 samples.

Results

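The genes described here are 10 parts of the Notch signalling pathway: the receptors Notch1, Notch2 and Notch3, the ligands Jag1, Jag2 and Dll1, and the target genes Hes1, Hey1, Heyl and Nrarp. They were chosen by gene name. All 10 were present in both deposited gene tables, 1 of 18502 protein-coding genes and 1 of 18344. RNA sequencing was done on mouse back-skin epidermis sorted at postnatal day 71 as EpCAM+, Sca1+ and α6-integrin high, the surface profile of basal keratinocytes between the hair follicles. The groups were Eed KO (genotype Eed -/-, n = 3) with its own Eed Control (n = 3), and Ring1a/b 2KO (genotype Ring1a-/- Ring1b-/-, n = 2) with its own Ring1 Control (n = 2). The labels give both control groups the genotype "Control" alone, so an allele that controls and knockouts share cannot be read from them. Every library carries the same treatment text: 4-hydroxytamoxifen at 20 mg/ml, 100 µl a day on shaved back skin for 4 days from postnatal day 50, to induce recombination. The sources used here give neither the promoter that drives the recombinase nor whether the libraries are from separate mice, and p-values measure only the spread between these libraries.

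Eed is a core subunit of Polycomb repressive complex 2, which methylates histone H3 at lysine 27, while Polycomb repressive complex 1 marks histone H2A with ubiquitin through Ring1 (also Ring1a) or Rnf2 (also Ring1b). Notch receptors are transmembrane proteins that are cut when a Jagged or Delta-like ligand on a neighbouring cell pulls on them. The freed intracellular part enters the nucleus, binds Rbpj and Mastermind-like proteins and switches on genes of the Hes and Hey families and Nrarp, a feedback inhibitor. In the epidermis Notch signalling is known for moving keratinocytes out of the basal layer and into differentiation. Each knockout was compared with its own controls, which asks whether loss of either Polycomb complex altered the level of these genes.

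The values are normalised read counts, meaning reads divided by 1 size factor per library. The recovered totals were 31699979 to 40701183 reads in the 6 Eed-table libraries. In the Ring1 table they were 25158144 and 7162907 reads in control libraries 1 and 2, and 19814853 and 6237389 in 2KO libraries 1 and 2, so library 2 was the shallow one in both groups. All 7 basal keratinocyte markers had reads in every group. Whole-gene counts of the targeted genes overlapped: Eed was at 1319 to 1845 in Eed controls and 1143 to 1412 in Eed KO, and in the Ring1 table Ring1 was at 66.2 and 211 against 104 and 115, and Rnf2 at 675 and 669.7 against 720.1 and 529. The deleted exons are not given, so these counts check no label.

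Promoter sequence is shown first for 3 of the 4 genes that were lower in both 2KO libraries with an unadjusted p under 0.05 (Jag1, Dll1 and Nrarp). The stretches come from RefSeq on GRCm38.p6 and hold only the bases upstream of both the RefSeq and the GENCODE M21 start, 5′ to 3′ on the gene's strand, with CpG dinucleotides in capitals. They lie at chr2:137116645-137116770 (minus strand, 126 bases, 14 CpG) for Jag1, chr17:15376933-15377182 (minus strand, 250 bases, 13 CpG) for Dll1 and chr2:25180508-25180757 (plus strand, 250 bases, 18 CpG) for Nrarp.
Jag1: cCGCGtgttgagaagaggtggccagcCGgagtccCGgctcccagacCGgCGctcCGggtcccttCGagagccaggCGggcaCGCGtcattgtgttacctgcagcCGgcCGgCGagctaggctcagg
Dll1: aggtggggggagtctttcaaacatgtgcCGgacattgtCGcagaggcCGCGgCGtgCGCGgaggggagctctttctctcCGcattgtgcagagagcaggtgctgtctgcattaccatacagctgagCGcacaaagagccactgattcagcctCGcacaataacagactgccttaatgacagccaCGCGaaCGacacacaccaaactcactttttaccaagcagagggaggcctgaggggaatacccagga
Nrarp: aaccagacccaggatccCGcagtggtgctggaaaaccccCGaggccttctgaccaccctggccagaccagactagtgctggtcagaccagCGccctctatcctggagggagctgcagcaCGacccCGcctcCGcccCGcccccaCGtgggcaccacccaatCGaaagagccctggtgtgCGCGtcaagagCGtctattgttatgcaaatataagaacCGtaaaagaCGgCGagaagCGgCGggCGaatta

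CpG-rich promoters are the usual sites of Polycomb binding in mammals, and the core letters of the Rbpj site are TGGGAA. RefSeq windows of 300 bases around the start matched 7 of the 10 members. Hes1, Hey1 and Heyl were not matched. TGGGAA was found in 0 of 7 windows, with both strands searched, while 23.5% of the 14944 windows of genes tested in the Ring1 table hold it on at least 1 strand. The 7 windows held between 15 (Dll1) and 63 (Jag2) CpG, against a median of 18 over the windows of tested genes. For Jag2, 99.9% of those windows held fewer CpG, for Notch2 94.1%, for Jag1 59%, for Nrarp 55.9% and for Dll1 39.6%. The Jag2 and Notch1 windows lie downstream of the GENCODE start, inside the gene, so no upstream stretch is shown for them.

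In the Ring1a/b 2KO the 3 ligands and Nrarp were lower than in the controls, the 3 receptors lay on both sides of their control level, and no member passed the threshold after adjustment over all genes. The ligands stood at 0.555 to 0.644 of their control means and Nrarp at 0.382, while the receptors stood at 0.826 to 1.27. Of the 10 members, 9 passed the filter on low values; Heyl did not. By limma with Benjamini-Hochberg adjustment 0 of 9 were called, against 0.0392% of the 15310 genes tested (6 genes). At an unadjusted p under 0.05 limma gave 4 of 9, all lower (Jag1, Jag2, Dll1 and Nrarp), where 4.81% of all genes passed in that direction and 10.4% in either. The edgeR quasi-likelihood test and DESeq2 on recovered reads also gave 4 at an unadjusted p under 0.05 and 0 after adjustment. The authors' deposited table gives an adjusted p under 0.05 to 0 members, against 1.49% of the genes given one there. Below 0 were 7 of 9 members, against 50% of all genes, and the members' median log2 fold change was −0.63. Leaving out 1 library at a time changed how many members reached an unadjusted p under 0.05 in limma: 1 without Ring1 control 1, 1 without control 2, 5 without 2KO library 1 and 3 without 2KO library 2. All 13 alternatives kept Jag1, Jag2, Dll1 and Nrarp below 0, and none called any of them. For most alternatives this direction was fixed in advance. Both 2KO libraries were below both controls, so leaving out 1 library could not reverse it. Changing the filter or adding the replicate block leaves the log2 fold change as it was.

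Jag1 (ENSMUSG00000027276.7, chromosome 2, 137081456 to 137116644, minus strand, mm10), a ligand known for its role in hair follicles and the differentiating epidermis, had 1651 and 2104 normalised counts in control libraries and 1191 and 893 in 2KO libraries. Both 2KO libraries were below both controls. The log2 fold change, on the scale of log2(value + 1) as throughout, was −0.85 (SE 0.23, 95% interval −1.37 to −0.33, unadjusted p = 0.0046, limma adjusted p = 0.280). In the authors' deposited table its adjusted p was 0.135.

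Jag2 (ENSMUSG00000002799.6, chromosome 12, 112907819 to 112929776, minus strand), a Jagged ligand of basal keratinocytes, was at 3191 and 3309 in control libraries and 2176 and 2012 in 2KO libraries. The spread within each group was small beside the gap between them, with group means of 3249.8 ± 83.1 and 2094 ± 116 (SD, n = 2 each). The log2 fold change was −0.63 (SE 0.20, interval −1.07 to −0.20, unadjusted p = 0.00958, limma adjusted p = 0.349). After quantile normalization it was −0.42 with an unadjusted p of 0.054.

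Dll1 (ENSMUSG00000014773.13, chromosome 17, 15367354 to 15376872, minus strand), the Delta-like ligand that marks basal stem cell clusters in human epidermis, was at 695 and 778 in the controls. In the 2KO it was at 515 and 398, both below the controls. The log2 fold change was −0.70 (SE 0.23, interval −1.21 to −0.18, unadjusted p = 0.0135, limma adjusted p = 0.371).

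Nrarp (ENSMUSG00000078202.3, chromosome 2, 25180758 to 25183339, plus strand) encodes an ankyrin-repeat protein that binds the Notch transcription complex and limits its activity. It was at 132 and 105 in control libraries and 42.0 and 48.4 in 2KO libraries, the largest difference of group means among the 9 members tested, as a ratio. The reads behind these values numbered 253 and 63 (control) and 68 and 27 (2KO). The log2 fold change was −1.36 (SE 0.43, interval −2.34 to −0.39, unadjusted p = 0.0114, limma adjusted p = 0.359).

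Among the receptors, Notch1 (ENSMUSG00000026923.15, chromosome 2, 26457903 to 26516663, minus strand), the main receptor of mouse epidermis in genetic studies, was at 3093 and 2993 in control libraries and 3088 and 3882 in 2KO libraries. The groups overlapped, and the log2 fold change was 0.19 (interval −0.28 to 0.66). Notch2 (ENSMUSG00000027878.11, chromosome 3, 98013527 to 98150361, plus strand) was at 2047 and 2046 in control libraries and 1729 and 1651 in 2KO libraries, without overlap, and its log2 fold change of −0.28 had an interval that includes 0 (−0.71 to 0.16). Notch3 (ENSMUSG00000038146.7, chromosome 17, 32120820 to 32166852, minus strand), a receptor also known from vessel mural cells, was at 367 and 405 in the controls. It was at 468 and 516 in the 2KO, above both controls, with a log2 fold change of 0.35 (interval −0.16 to 0.86). Vessel mural markers went both ways in the 2KO: 3 of the 4 tested were above 0, with a median log2 fold change of 1.05, while their summed level was 529 to 577 in control libraries and 378 to 468 in 2KO libraries. Pdgfrb was at 0 in the controls and Des had no value, and the part of these markers in the Notch3 values was not tested.

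Without overlap between the groups, 5 of 9 members were lower (the 3 ligands, Notch2 and Nrarp) and 1 was higher (Notch3). Over all genes tested 21.5% were lower without overlap and 21.4% higher.

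The other target genes varied within the groups. Hes1 (ENSMUSG00000022528.8, chromosome 16, 30064384 to 30067796, plus strand), a repressor that keeps early suprabasal cells from finishing differentiation, was at 4188 and 1672 in control libraries and 2236 and 558 in 2KO libraries. In each group the shallow library 2 was the lower, the groups overlapped, and the interval of the log2 fold change of −1.24 ran from −4.86 to 2.37. Leaving out 2KO library 2 gave −0.24 and leaving out 2KO library 1 gave −2.24, while the values were −0.58 without control 1 and −1.91 without control 2. Hey1 (ENSMUSG00000040289.8, chromosome 3, 8663359 to 8667256, minus strand), a related repressor, was at 38.5 and 38.2 in control libraries and 38.3 and 16.1 in 2KO libraries, so 1 library made the difference. Heyl (ENSMUSG00000032744.4, chromosome 4, 123233556 to 123249875, plus strand), a further member of the Hey family, was at 3.65 and 0 in control libraries and 9.27 and 1.79 in 2KO libraries, too low for a comparison.

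**Figure D1:**
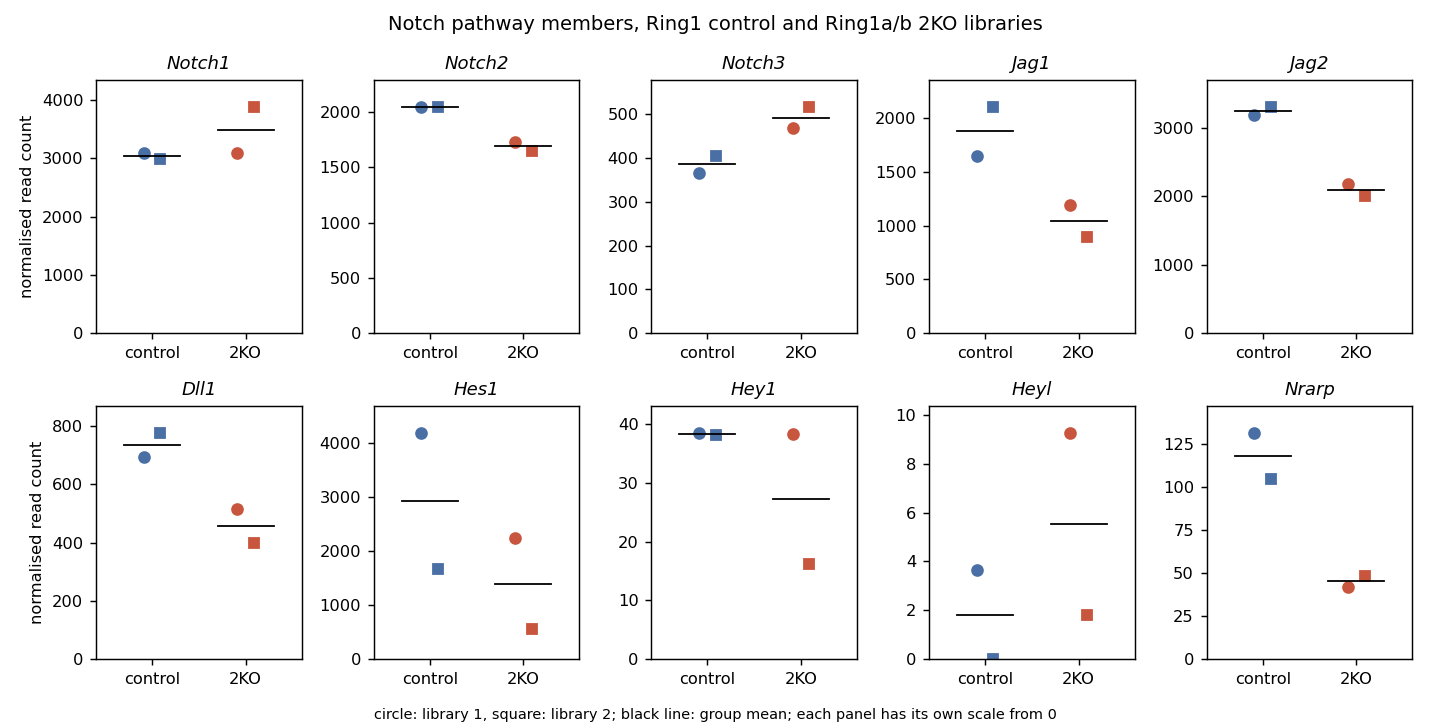
Normalised read counts of the 10 members in the Ring1 table, with 1 panel per gene and its own axis from 0; points are libraries (control n = 2, Ring1a/b 2KO n = 2) and black lines are group means. Jag1, Jag2, Dll1, Nrarp and Notch2 sit lower in both 2KO libraries and Notch3 sits higher, while Notch1, Hes1, Hey1 and Heyl overlap. Over all genes tested 21.5% were lower and 21.4% higher without overlap.

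In the Eed KO no member was called and no member's KO libraries stood apart from the controls. By limma 0 of 9 members had an adjusted p under 0.05, against 0% of the 16122 genes tested. At an unadjusted p under 0.05 there were 0 of 9 by limma, edgeR and DESeq2, where 4.73% of all genes passed by limma. Groups without overlap were 0 of 9 in either direction, while 4.15% of all genes were lower and 5.06% higher without overlap. The authors' deposited table calls 0 members, against 0.761% of the genes given an adjusted p there. Below 0 were 8 of 9 members, against 48.8% of all genes, with a median of −0.18 against 0.01. By limma the members' adjusted p-values ran from 0.989 to 0.995.

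Jag1 was at 6681, 6411 and 4850.4 in Eed control libraries and 4895, 4681 and 6218 in Eed KO libraries, and the lowest library of all was KO library 2. Its log2 fold change was −0.18 (SE 0.20, interval −0.63 to 0.27). Jag2 was at 12559, 15223 and 10137 in Eed control libraries and 10101, 13287 and 13443 in Eed KO libraries, which overlap almost fully, and its log2 fold change was −0.03 (interval −0.54 to 0.47). Dll1 was at 2502, 1916 and 2279.5 in Eed control libraries and 1850.1, 1396 and 2091 in Eed KO libraries. Only KO library 3 exceeded a control library, and the log2 fold change was −0.34 (SE 0.21, interval −0.80 to 0.13, unadjusted p = 0.133).

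Notch1 was at 12214, 14874 and 10419 in Eed control libraries and 12252, 12801 and 24984 in Eed KO libraries. KO library 3 alone was high, at 199.8% of the control mean, and the other KO libraries lay at 98.0% and 102%. The log2 fold change was 0.35 (interval −0.32 to 1.02). Notch2 was at 6124, 8369 and 5207 in Eed control libraries and 3198, 6018 and 5784 in Eed KO libraries, where only library 1 was below the control range, and its log2 fold change was −0.42 (interval −1.05 to 0.21). Notch3 was at 1711, 2796 and 1204 in Eed control libraries and 1084, 1868 and 2139 in Eed KO libraries (log2 fold change −0.14, interval −0.91 to 0.63).

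Hes1 varied widely in both groups, at 10115, 5753 and 11312 in Eed control libraries and 5076, 6195 and 11343 in Eed KO libraries. Its log2 fold change was −0.29 (interval −1.07 to 0.48). Hey1 was at 44.8, 97.4 and 63.7 in Eed control libraries and 34.8, 35.3 and 75.7 in Eed KO libraries, and KO libraries 1 and 2 were below all controls (log2 fold change −0.52, interval −1.65 to 0.62). Nrarp was close in the 3 controls (1408, 1456 and 1404) and spread more in the KO (1159, 1183 and 1844), with a log2 fold change of −0.06 (interval −0.55 to 0.43). Heyl was at 0, 0 and 7.08 in Eed control libraries and 14.4, 1.04 and 2.37 in Eed KO libraries.

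**Figure D2:**
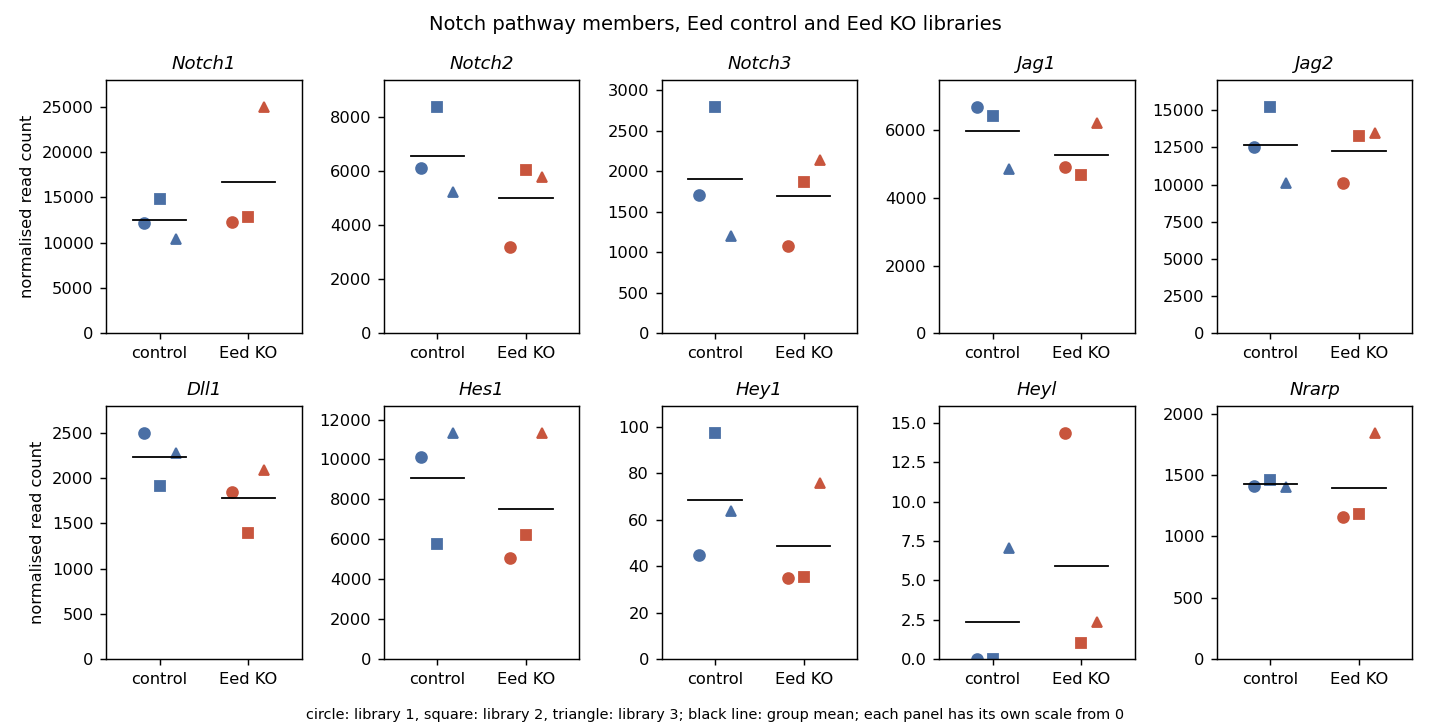
Normalised read counts of the 10 members in the Eed table, with 1 panel per gene and its own axis from 0; points are libraries (control n = 3, Eed KO n = 3) and black lines are group means. The groups overlap in every panel, and Notch1 in KO library 3 (24984) stands above the other 5 libraries.

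The difference between the knockouts was tested in 1 limma fit over the 10 libraries. For Nrarp the Eed effect minus the Ring1a/b effect was 1.30 on the log2 scale (SE 0.36, interval 0.51 to 2.09, unadjusted p = 0.0039). Its adjusted p was 1.00, as for the other members, and 0% of the 15924 genes were called. At an unadjusted p under 0.05 there were 1 of 9 members (Nrarp, above 0) and 1.98% of all genes, 1.11% with a value above 0. Jag1 differed by 0.67 (interval −0.02 to 1.37, unadjusted p = 0.0565), Jag2 by 0.60 (interval −0.09 to 1.29) and Dll1 by 0.36 (interval −0.33 to 1.04). The remaining 5 members differed by between −0.49 (Notch3) and 0.95 (Hes1), each with an interval that includes 0.

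**Figure D3:**
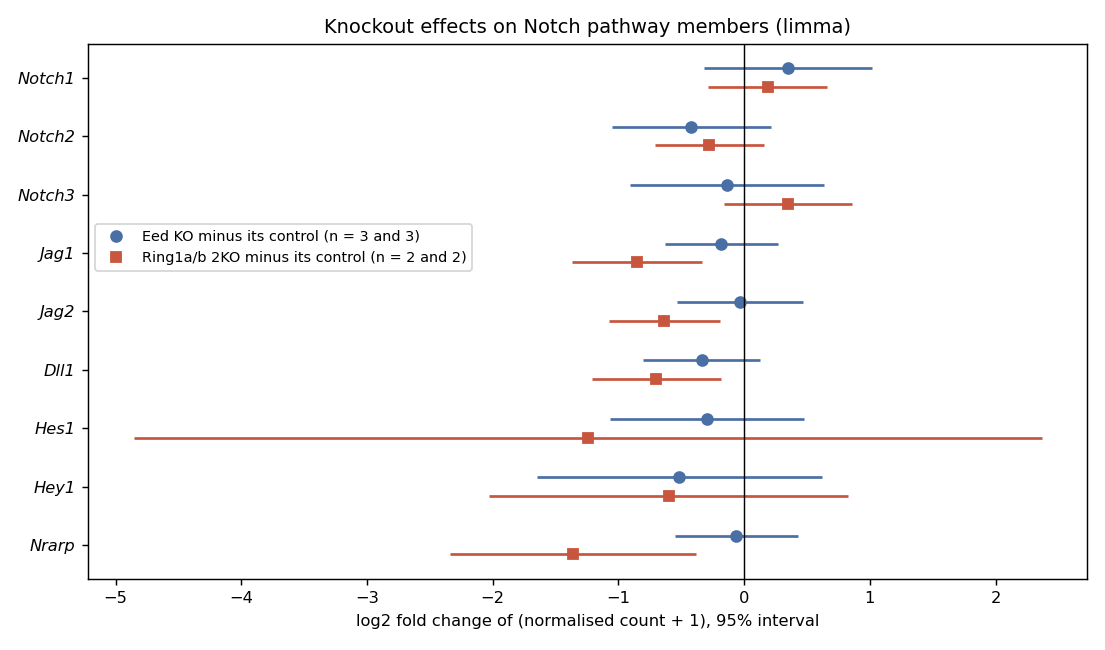
Log2 fold change of each tested member in Eed KO (circles, n = 3 and 3) and Ring1a/b 2KO (squares, n = 2 and 2), each against its own controls, with 95% intervals from limma. The 2KO intervals of Jag1, Jag2, Dll1 and Nrarp lie below 0 before adjustment, all Eed KO intervals include 0, and the 2KO interval of Hes1 runs from −4.86 to 2.37.

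Levels of different genes were compared per kilobase of the longest protein-coding transcript. In the Eed controls Hes1 was first at 6171 ± 1993 normalised counts per kilobase (SD, n = 3), followed by Jag2 at 2475 ± 498, Notch1 at 1318 ± 236 and Jag1 at 1066 ± 176. Notch2 (625 ± 155), Dll1 (623 ± 82.5) and Nrarp (551 ± 11.2) came next, then Notch3 (238 ± 101), Hey1 (28.3 ± 10.996) and Heyl (0.520 ± 0.901). The ranges of Notch1 and Jag1 overlapped, as did those of Notch2, Dll1 and Nrarp as neighbours, and all other neighbours were separate. In the Ring1 controls Hes1 (1996 ± 1212, n = 2) and Jag2 (636 ± 16.3) were again first and Hey1 (15.8 ± 0.0952) and Heyl (0.402 ± 0.568) last. Between them the order was Jag1 (335 ± 57.1), Notch1 (321 ± 7.43), Dll1 (206 ± 16.3), Notch2 (195 ± 0.0667), Notch3 (48.2 ± 3.42) and Nrarp (45.8 ± 7.42), with overlap of Jag1 with Notch1, Dll1 with Notch2 and Notch3 with Nrarp. In the 2KO Nrarp (17.5 ± 1.75) was separate from Notch3 (61.4 ± 4.28), and Hes1 (951 ± 808) overlapped with Jag2 (410 ± 22.7). In the Eed KO the first 4 genes came in the order of the Eed controls, with Notch1 (1758 ± 759) now overlapping Jag2 (2404 ± 369).

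Notch1 made up most of the receptor transcripts per kilobase in every library: 57.8% to 63.0% of the 3 receptors in Eed controls, 62.6% to 76.3% in Eed KO, 56.2% to 57.5% in Ring1 controls and 59.3% to 64.9% in the 2KO. The ratio of summed ligands to summed receptors per kilobase was 1.96 and 2.21 in control libraries and 1.43 and 1.05 in 2KO libraries, without overlap. In the Eed controls it was 2.09, 1.72 and 2.00, and in the Eed KO 1.95, 1.78 and 1.25, which overlap. In the Ring1 table the ligand sum was the part that was lower (1113 and 1240.0 against 782 and 664), while the receptor sum overlapped (567 and 561 against 549 and 631). These sums restate the values of the single genes and were not tested.

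Beyond the members, 59 other genes of the pathway were listed by role. In the Ring1a/b 2KO 55 were tested, 0 were called by limma, and the authors' deposited table called 1, Krt1, as higher. Of these 55, 36 were below 0 (65.5%, against 50% of all genes) and their median log2 fold change was −0.14, against a median near 0 for all genes. Without overlap 23 of the 55 were lower and 7 were higher, where 21.5% and 21.4% of all genes were.

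All 6 genes of the nuclear complex (Rbpj, Maml1, Maml2, Maml3, Ep300 and Snw1) were lower without overlap, with a median of −0.51, and 3 had an unadjusted p under 0.05. The 5 glycosyltransferase genes that modify the receptors had a median of −0.53, and 3 of them were lower without overlap. These lists had the lowest medians of the roles beyond the members. Medians elsewhere were −0.28 for receptor cleavage, −0.24 for epidermal genes, −0.14 for corepressors, and −0.03 for both ligand endocytosis and turnover. They were 0.05 for the other ligands, 0.38 for the other target genes and 0.78 for Notch4 alone. Over all genes 21.5% were lower without overlap and 4.81% were lower at an unadjusted p under 0.05. Rbpj, the DNA-binding partner of the Notch intracellular part, was at 1403 and 1526 in control libraries and 1110.1 and 846 in 2KO libraries (log2 fold change −0.59, unadjusted p = 0.0217, limma adjusted p = 0.410). Ep300, a histone acetyltransferase recruited to the complex, was at 3999 and 4437 against 3135 and 2783 (log2 fold change −0.51, limma adjusted p = 0.436). Maml2, a Mastermind-like coactivator, was at 646 and 751 against 566 and 371 (log2 fold change −0.60, limma adjusted p = 0.468). In the Eed KO the same list had a median of −0.09 and 0 of 6 without overlap.

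Other genes named by the smallest p in the 2KO were Krt1, Tle1, Dlk1 and Neurl1a, all higher, and Aph1c, lower. Krt1, a keratin of suprabasal cells that rises with differentiation, was at 13947 and 9866 in control libraries and 24228 and 35925 in 2KO libraries, and its log2 fold change by limma was 1.33 (SE 0.27, adjusted p = 0.184; adjusted p = 0.00247 in the authors' deposited table). Tle1, a Groucho-type corepressor used by Hes proteins, was at 239 and 231 against 475 and 316. Dlk1, a non-canonical ligand, was at 20.3 and 23.3 against 57.5 and 55.6, and Neurl1a, a ubiquitin ligase, at 5.21 and 13.3 against 27.2 and 35.9. Aph1c, a subunit of γ-secretase, was at 225 and 316 against 138 and 80.7, but its close copy Aph1b makes the split of reads uncertain. The limma adjusted p-values of these last 4 were 0.305 to 0.468.

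In the Eed KO 56 of the 59 were tested, 0 were called by limma or in the authors' deposited table, and 40 were below 0 (71.4%, against 48.8% of all genes), with a median of −0.09 against 0.01. At an unadjusted p under 0.05 there were 2, both lower. Tle4, a Groucho-type corepressor, was at 3495, 2926 and 3509 in Eed control libraries and 1426, 2410.3 and 2127 in Eed KO libraries (log2 fold change −0.76, SE 0.22, unadjusted p = 0.00686, limma adjusted p = 0.775). Dtx1, a ubiquitin ligase and Notch target, was at 30.2, 31.5 and 65.7 against 11.99, 14.5 and 14.99 (log2 fold change −1.46, limma adjusted p = 0.964). Tle1, Neurl1a, Snw1 and Nedd4 had log2 fold changes of 0.16 to 1.41 and unadjusted p-values of 0.117 or more by limma.

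**Figure D4:**
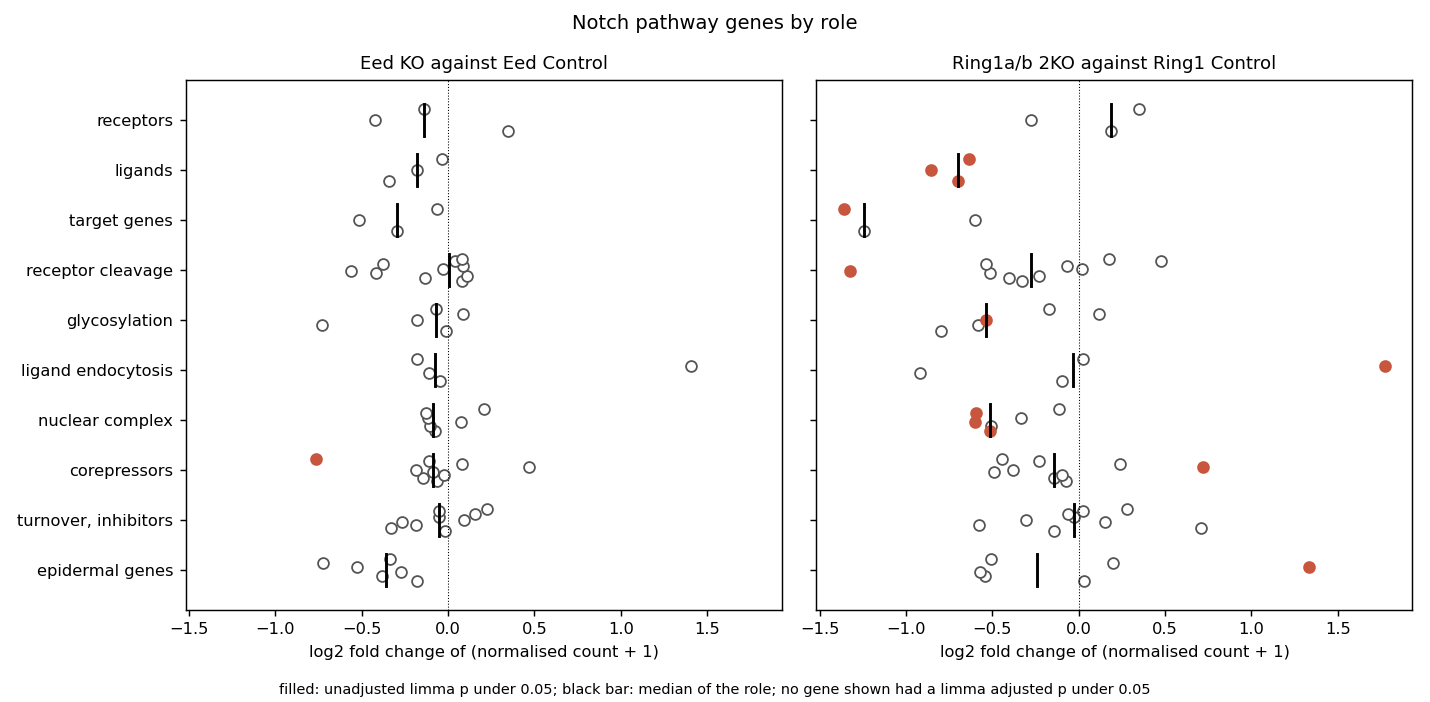
Log2 fold change of (normalised count + 1) for the tested members (receptors, ligands and target genes) and for other pathway genes by role, with 1 panel per knockout comparison on a shared axis; each point is a gene, filled where the unadjusted limma p was under 0.05, and black bars are medians. In the Ring1a/b 2KO the 3 ligands are filled and all 6 genes of the nuclear complex lie below 0, while the Eed KO has 0 filled members. Not drawn are the other receptors, ligands and target genes: Notch4, Dll3, Dlk1, Dlk2, Hes7, Hey2 and Dtx1. Of these, Dlk1 in the 2KO (higher) and Dtx1 in the Eed KO (lower) had an unadjusted limma p under 0.05.

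Summed markers of some other cell states stood apart between the Ring1 controls and the 2KO, while no marker was called by limma in either comparison. Of all single genes tested in the Ring1 table, 21.5% were lower and 21.4% higher without overlap. The part of the markers in the results on the ligands and Nrarp was not tested. The 8 suprabasal markers summed to 37204 to 47685 in the Ring1 controls and 61981 to 64119.7 in the 2KO, although 5 of the 8 were below 0. The 9 hair follicle markers summed to 24349.9 to 36664 against 13342 to 20648, although only 3 of the 8 tested were below 0 and their median log2 fold change was 0.84. Itga6, the α6-integrin used for the sort, was at 17301 and 13462 against 9738 and 9343. The other sort markers overlapped: Epcam was at 1767 and 1203 against 1845 and 938, and Ly6a (Sca1) at 3001 and 2474 against 2851 and 4267. The melanocyte sum was 59.4 to 94.7 against 176 to 481 (Tyrp1 at 0 in the controls), the fibroblast sum 87.5 to 123 against 156 to 785, and the Merkel cell sum 14.6 to 29.9 against 62.8 to 137 with no value for Atoh1. The T cell sum (1142 to 1437 against 1112 to 1201), the Langerhans cell sum (655 to 732 against 405 to 737), the endothelial sum (475 to 517 against 403 to 527) and the sum of the 7 basal markers (234309.7 to 298509 against 221691 to 253554) overlapped. Below 0 were 0 of 5 tested melanocyte markers, 0 of 4 fibroblast, 0 of 2 Merkel cell, 1 of 3 T cell, 4 of 5 Langerhans cell, 1 of 2 endothelial and 5 of 7 basal markers. In these bulk libraries fewer cells of a type and less RNA per cell cannot be told apart. In the Eed table the suprabasal sum was 230649 to 455885 in controls and 159545 to 317476 in the KO, with 8 of 8 below 0. There the fibroblast sum was 62.9 to 258 against 353 to 959, with 1 of 5 tested below 0.

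The genes whose pattern was most like 3 of the members were taken by Pearson's r over the 10 libraries, after centring each table on its own mean, among 11290 genes. These are descriptions: the points share libraries, depth and groups. Notch1 was most like Zfp704 (r = 0.93), Zfp280b (0.89) and Rev1 (0.88), and Zfp704 was also highest in Eed KO library 3 (3315, against 1496 to 1978 in the other Eed-table libraries). Jag2 was most like Ep300 (0.98), Rreb1 (0.97) and Tlr3 (0.96). Hes1 was most like Nr4a3 (0.99), Ypel5 (0.98) and Pqlc1 (0.98). Nr4a3, an immediate early gene, was at 2658 and 759 in control libraries and 1223 and 95.03 in 2KO libraries. Fos, Jun and Egr1, immediate early genes chosen after their values were seen, were also lowest in 2KO library 2: Fos was at 38339.6 and 18838 in control libraries and 29562 and 3781 in 2KO libraries, Jun at 17619.6 and 8334 against 13276 and 1992, and Egr1 at 80276 and 33395 against 60805 and 9135. In the Eed table they did not follow Hes1: Eed control 2, with the lowest Hes1 of the controls (5753), had the highest Fos (132019.8) and Egr1 (259974) of the 6 libraries. Nr4a3 there was at 5971, 2985 and 7496 in Eed control libraries and 2998, 3316 and 7158 in Eed KO libraries, which is the order of Hes1 within the controls and within the KO. The part of these genes' course in the spread of Hes1 was not tested.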

How the data were processed

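Sequencing was paired-end, from 10 ng of total RNA amplified with a NuGEN Ovation kit, in 10 libraries, per the labels' protocols. The submitters' processing notes name kallisto 0.42.5, DESeq2 and the build mm10. The library columns of the authors' deposited tables hold normalized counts, a signal unit with 1 size factor per library. The log2 fold changes, p-values and test statistics (a score, not used) in those tables are as the authors deposited them. All values (100%) proved to be whole multiples of 1 step per library within a tolerance of 1e-06, which gave the reads back. Each table was normalized on its own, and no level was tested across tables. No source used here states the strand setting, and reads of an overlapping gene on the opposite strand cannot be told apart.

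limma 3.58.1 (trend, robust) in R 4.3.3 compared each knockout with its own controls on log2(value + 1), over genes averaging 5 or more in a table, with Benjamini-Hochberg adjustment over all of them and calls at an adjusted p under 0.05. The difference of effects came from 1 fit over all libraries with the table as intercept. Alternatives were no filter, an average of 50 or more, pseudocounts 0.5 and 5, quantile normalization, edgeR 4.0.16 and DESeq2 1.42.0 on the recovered reads, the deposited calls, a block for the replicate number, and each library left out in turn. The fits were tested on simulated data. The members, lists and tests were chosen with earlier results of these data known.

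The named genes were all members; of the other pathway genes, every one called and the 4 with the smallest p in each direction and comparison; and the 3 genes most like Notch1, Jag2 and Hes1 among those averaging 50 or more in each table, predicted genes skipped. Some genes under this rule are not reported here. Eed, Ring1, Rnf2, Itga6, Epcam and Ly6a were named as checks. Positions and transcript lengths are from GENCODE M21 (GRCm38), where 18495 and 18339 identifiers matched once their version was dropped. A planned comparison of the Hes and Hey proteins was not run. Amplified reads are not independent molecules.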

Additional observations from a re-analysis of the deposited data

How the results depend on the processing

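No member was called under the alternatives run, and the lowest adjusted p of a member was 0.0615. The difference of effects was run without the filter, with a pseudocount of 5, with the block and with each library left out only. Of 368 values of members under the alternatives, 353 kept their direction and side of the threshold and 15 reversed, 14 of them on leaving out a library. The other was Jag2 in the Eed KO under quantile normalization (0.066). Many of the 353 could not reverse, because the filters and the replicate block leave the log2 fold change as it was. DESeq2 on recovered reads repeated the deposited fit, so that fit is counted more than once. Ranges on leaving out 1 library that cross 0 were, in the Eed KO, Notch3 −0.42 to 0.18, Jag2 −0.18 to 0.11 and Nrarp −0.28 to 0.055, and, for the difference of effects, Notch1 −0.17 to 0.35, Notch2 −0.31 to 0.15, Hes1 −0.051 to 1.95 and Hey1 −0.51 to 0.68. The cause was not tested.

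Counts over all genes moved more. In the Eed KO limma called 0 genes, while DESeq2 on recovered reads and the table deposited by the authors each called 127, and leaving out 1 library gave 0 to 4 (2 without control 2, 4 without KO library 2). In the 2KO limma called 6, no filter 10, edgeR 0 (1404 at an unadjusted p under 0.05), DESeq2 and the deposited table each called 231, and leaving out 1 library gave 0 to 438 (0 without control 1 or control 2, 438 without 2KO library 1, 2 without 2KO library 2). For the difference of effects the count of 0 became 0 to 4 (1 without Ring1 control 1, 4 without 2KO library 1). Where 1 library was left in a group, it was assumed to vary like the other groups.

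Control and knockout libraries share replicate numbers. In the Eed table the column headers of same-numbered libraries also share a letter (A, B or C), whose meaning is not stated. Same-numbered deviations there correlated at −0.20, 0.16 and 0.31. In the Ring1 table the 2 same-numbered pairs correlated at 0.23 and the other pairs at −0.23. With 2 libraries per group the deviations from the group mean mirror each other. These correlations are therefore 1 value and its negative, not separate results. Library 2 was the shallow one in both groups of the Ring1 table. No label or header says whether libraries were paired in either table, and the main test took them as unpaired. Eed control 1 correlated best with KO library 3 (0.21). With the replicate number as a block 1 gene was called in the Eed KO, 36 in the 2KO and 0 for the difference, and no member. In the 2KO 5 of 9 members then had an unadjusted p under 0.05, and Hes1 kept its −1.24 with an unadjusted p of 0.000437 (limma adjusted p = 0.0835). Depth limits Nrarp (27 reads), Hey1 and Heyl most in 2KO library 2.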

Other observations

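Nrarp stood at different levels relative to other members in the 2 control groups. Per kilobase it was at 0.896 ± 0.141 of Dll1 (SD, n = 3) in the Eed controls and at 0.225 ± 0.0538 (n = 2) in the Ring1 controls. Relative to Notch1 it was at 0.426 ± 0.0677 and 0.143 ± 0.0198. The ratio of Jag2 to Jag1 was 2.32 ± 0.273 and 1.93 ± 0.280, which overlap. Ratios within a library do not depend on its size factor. The control groups belong to different tables, and the labels do not state whether they share alleles. Ring1 and Rnf2 were at 709 and 1827, 706 and 1495, and 877 and 1558 in the Eed control libraries. In the Ring1 controls they were at 66.2 and 675, and 211 and 669.7, so Ring1 was lower relative to Rnf2. Table and any difference in genotype cannot be told apart, and the differences were not tested.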
